A study of Caenorhabditis elegans with 12 samples.

Results

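The ttr- genes encode the transthyretin-related proteins of Caenorhabditis elegans. They were taken here as all genes whose symbol starts with ttr- and whose mean level over the 12 libraries was at least 1 CPM (read counts scaled to a common library size, as normalised by the authors). That rule gave 51 of the 14505 genes in the tables. Of 58 ttr- symbols in the annotation, 52 were in the tables and 6 (ttr-19, ttr-22, ttr-52, ttr-56, ttr-57 and ttr-58) were not analysed here. The 1 symbol just outside the rule was ttr-55, with a mean of 0.893 CPM. Just inside it were ttr-42 at 1.17, ttr-13 and ttr-28 at 1.25, ttr-11 at 1.57, ttr-43 at 1.74 and ttr-50 at 1.85 CPM.

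Poly-A RNA came from whole L4 larvae of 4 strains grown at 20 degrees, with 3 libraries each that the series text calls biological replicates. WBM66, called the double strain, carries both CA-AAK-2 and CA-CRTC-1, the second with the changes S76A and S179A. WBM60 carries CA-AAK-2 alone, WBM55 carries CA-CRTC-1 (S76A, S179A) alone, and N2 is the wild type. AAK-2 is an alpha subunit of the energy-sensing kinase AMPK, and CRTC-1 is a coactivator of the transcription factor CREB that this kinase phosphorylates. The promoters that drive the transgenes, the number of lines and whether the transgenes are integrated are not given in the sources used here.

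Transthyretin in vertebrates carries thyroid hormone and retinol-binding protein in the blood. Nematodes have an expanded family of small, mostly secreted proteins that share its fold, and related proteins are abundant in the secretions of parasitic nematodes. Few of the C. elegans members have a described role. TTR-52 bridges phosphatidylserine on dying cells to the engulfment receptor CED-1, and TTR-33 protects dopamine neurons against oxidative damage. The enzymes closest to transthyretin by descent, the 5-hydroxyisourate hydrolases, are separate genes in the worm. The question asked of the family was whether the strong rise of single members in the CA-CRTC-1 strains is shared by the others.

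A subset of members was many-fold higher in both strains with CA-CRTC-1, whether or not CA-AAK-2 was also present. Of the 5 most abundant members, ttr-15 was called higher, ttr-44 lower and ttr-14 in the interaction only. The other members among these 5, ttr-16 and ttr-46, were called in none of the tests. Across 6 tests per gene (5 comparisons of strains and 1 interaction), 18 of the 51 members were called in at least 1 (35.3%), against 24.2% of the 13762 genes whose mean reached 1 CPM. Of the other 33 members, 14 were too low to be tested in any of the 6 and 19 were tested without a call. A gene was called where limma gave an adjusted p (Benjamini-Hochberg, over all genes tested) no higher than 0.01 and the difference reached 1.5-fold. A gene was tested only if its mean over the libraries compared was 5 CPM or more. These were 6 libraries in a comparison of strains and all 12 for the interaction. With that limit lowered to 1 CPM, 30 members were called in at least 1 test (58.8%), against 32.7% of genes, and 21 in none.

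**Figure D1:**
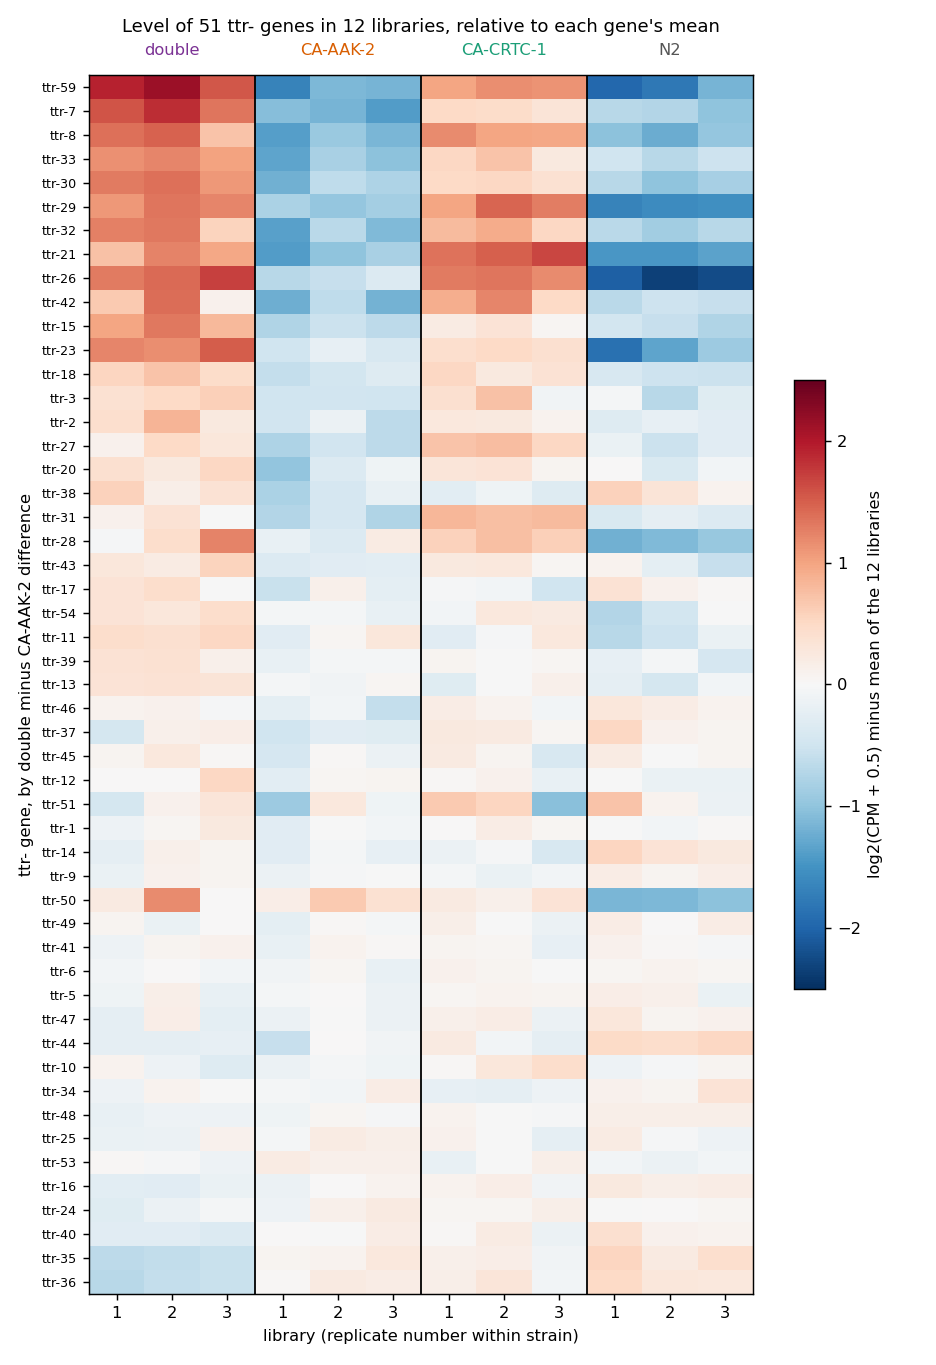
Level of each of the 51 ttr- genes (down the page) in each of the 12 libraries (across, by strain), as log2(CPM + 0.5) minus the gene's mean over the 12 libraries. Genes are sorted by the difference between the double strain and CA-AAK-2, so that the members that are high in both strains with CA-CRTC-1 lie at the top and ttr-35 and ttr-36, low in the double strain, at the bottom.

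The libraries hold 30887631 to 48989013 counted reads each, and a single read is worth 0.0178 to 0.0285 CPM. The transgenes matched the labels. aak-2 was at 2785 to 3270 CPM in the double strain and 2440 to 2640 CPM in CA-AAK-2, against at most 69.8 CPM in CA-CRTC-1 and 67.9 CPM in N2. crtc-1 was at 350 to 379 CPM in the double strain and 177 to 207 CPM in CA-CRTC-1, against 17.7 to 23.2 CPM in CA-AAK-2 and 18.3 to 23.4 CPM in N2. The transgene of the double strain was thus at a higher crtc-1 level than that of the CA-CRTC-1 strain, and its part in the differences between these strains was not tested. In RNA from whole animals, fewer cells of a type and less RNA per cell cannot be told apart.

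The members ranged widely in level. Their mean over the 12 libraries ran from 1.17 to 422 CPM with a median of 13.3 CPM, and 35 were at 5 CPM or more. Per kilobase of exon, which allows levels to be compared between genes, the range was 1.45 to 663 CPM per kb with a median of 19.6. ttr-16 stood highest at 663 CPM per kb, followed by ttr-15 at 373, ttr-14 at 298 and ttr-46 at 208. The genes ttr-14, ttr-15 and ttr-16 together made up 41.7 to 47.8% of the family's summed CPM in each library. In N2, 8 members averaged under 1 CPM and in CA-AAK-2 4 did, whereas in the double strain and in CA-CRTC-1 none did. A member under 1 CPM in a strain had to be higher in another to meet the rule, so these counts depend on the rule. The same counts over all genes are not given here.

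The summed level of the family was 2434 ± 183 CPM in the double strain, 1857 ± 155 CPM in CA-AAK-2, 2219 ± 190 CPM in CA-CRTC-1 and 2259 ± 125 CPM in N2 (SD, n = 3 each). The sums of the double strain (2309, 2644 and 2348 CPM) lay above all those of CA-AAK-2 (1695, 2004 and 1871 CPM). Without ttr-15 the sum was 2016 ± 118 CPM in the double strain, 1729 ± 145 CPM in CA-AAK-2, 1989 ± 169 CPM in CA-CRTC-1 and 2126 ± 113 CPM in N2 (SD, n = 3 each). The double strain, CA-CRTC-1 and N2 overlapped each other both with and without ttr-15. Between the means of the double strain and CA-CRTC-1, ttr-15 made up most of the gap.

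The 51 members lie on chromosomes V (19), X (12), IV (10), III (8) and II (2) in the annotation, which is of WBcel235. Of these, 24 have another ttr- gene as their next coding gene. The exons of 14 members overlap those of another gene, and because the library kit does not keep the strand, reads from an overlapped stretch cannot be assigned by strand. The levels of several of these partners are given beside the members they overlap.

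CA-CRTC-1 was first compared with N2, strains with and without the coactivator transgene that both lack the kinase transgene. Of 34 members tested, 10 were higher in CA-CRTC-1 (29.4%), against 6.62% of the 10509 genes tested. None was lower in limma, against 2.17% of genes, and edgeR on recovered reads also called none lower. Of the 34, 17 had an unadjusted p under 0.05 in either direction. The share of all genes with such a p is not given here. At an adjusted p of 0.05 without a minimum fold, limma called 11 of the 34 higher and 4 lower. Of the 10509 genes, 1999 were then higher and 800 lower. After median-ratio rescaling 1 member was called lower. Leaving out CA-CRTC-1 replicate 1 gave 2 members lower, and leaving out N2 replicate 3 or CA-CRTC-1 replicate 2 gave 1. The 10 that rose were ttr-8, ttr-15, ttr-18, ttr-26, ttr-27, ttr-30, ttr-31, ttr-32, ttr-33 and ttr-59. The median log2 difference of all 51 members was 0.19, with a lower quartile of -0.12 and a highest value of 3.47, so a long upper arm stood over a centre near 0. The median over all genes tested was 0.07. At the 1 CPM limit, 17 of 51 members were higher (33.3%), against 8.61% of genes. Of the 17, 6 were under 1 CPM in N2 and had to differ to pass that limit. Among the 43 members at 1 CPM or more in both strains, 11 were higher (25.6%), against 6.95% of such genes.

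Some members entered the test only because their level in the CA-CRTC-1 strain brought the mean to 5 CPM, and such a gene had to differ. Among the 29 members at 5 CPM or more in both strains, 5 were higher (17.2%), against 4.76% of such genes. These were ttr-15, ttr-18, ttr-31, ttr-32 and ttr-33.

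The second comparison set the double strain against CA-AAK-2, strains with and without the coactivator transgene that both carry the kinase transgene. It shares no library with the first. Of 35 members tested, 12 were higher in the double strain (34.3%), against 7.66% of the 10607 genes tested, and 2 were lower (5.71%), against 3.63%. At the 1 CPM limit 20 of 51 were higher (39.2%), against 9.55% of genes, and among the 47 at 1 CPM or more in both strains 17 were (36.2%), against 8.21% of such genes. The members higher at the 5 CPM limit were ttr-2, ttr-7, ttr-8, ttr-15, ttr-18, ttr-23, ttr-26, ttr-30, ttr-31, ttr-32, ttr-33 and ttr-59, and the 2 lower were ttr-35 and ttr-36. The median over all 51 members was 0.37 (log2), and over all genes tested 0.02. Among the 30 members at 5 CPM or more in both strains, 7 were higher (23.3%), against 5.90% of such genes.

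Because the 2 comparisons have no library in common, their overlap can be counted. In limma, 9 members rose in both, which is 90% of the 10 that rose in CA-CRTC-1 against N2 and 75% of the 12 that rose in the double strain against CA-AAK-2. Over all genes 267 rose in both, 38.4% of 696 and 32.8% of 813. Of the 9 members, ttr-8, ttr-30 and ttr-59 passed the 5 CPM limit in both comparisons only through the strain with CA-CRTC-1. ttr-26 did so in the first comparison, and in these cases the member had to differ. The others, ttr-15, ttr-18, ttr-31, ttr-32 and ttr-33, were at 5 CPM or more in both strains of each comparison. At the 1 CPM limit 15 members rose in both, 88.2% of the 17 in CA-CRTC-1 against N2 and 75% of the 20 in the double strain against CA-AAK-2, and over all genes the shares were 45.6% and 40.8%. Of the 15, ttr-21, ttr-29 and ttr-42 were under 1 CPM in both N2 and CA-AAK-2, and ttr-23 was in N2. Against those strains they had to differ to pass the limit. Across the 51 members the log2 differences correlated with Pearson's r = 0.81 and Spearman's rho = 0.76, and 36 (70.6%) had the same sign. Across 13762 genes the values were 0.51 and 0.37, with the same sign in 61% of genes. These are descriptions over genes measured in the same libraries, and genes are not independent replicates. For CA-AAK-2, added without and with CA-CRTC-1, r was 0.15 and rho 0.21 over the members, and 0.29 and 0.37 over the 13762 genes.

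**Figure D2:**
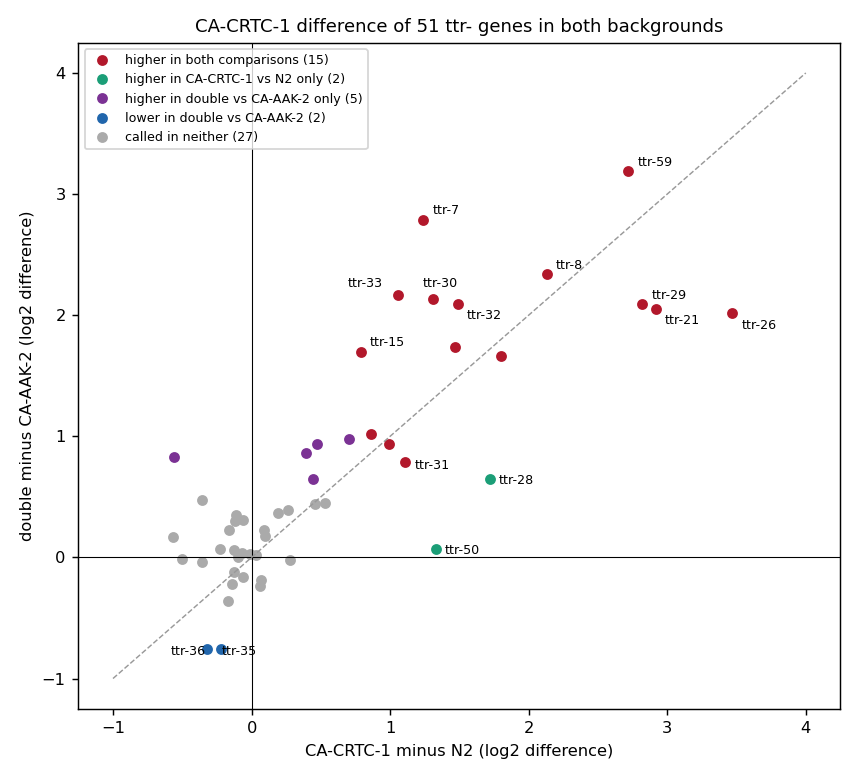
Log2 difference of each of the 51 ttr- genes between CA-CRTC-1 and N2 (horizontal axis) and between the double strain and CA-AAK-2 (vertical axis), with calls at the 1 CPM limit as colours and equal differences as the dashed line. The 15 members called higher in both lie at the upper right, and ttr-26 lies below the line whereas ttr-7, ttr-33 and ttr-15 lie above it.

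The member with the largest called difference was ttr-26 (WBGene00013079, chromosome V, 18558758 to 18560288). Its level was 20.2, 22.1 and 27.1 CPM in the double strain, 4.71, 5.15 and 6.11 CPM in CA-AAK-2, 20.2, 20.8 and 18.6 CPM in CA-CRTC-1, and 1.54, 1.18 and 1.28 CPM in N2. Every strain with a transgene lay above N2 with no overlap, and the double strain and CA-CRTC-1 overlapped each other. Against N2 the log2 difference was 3.68 ± 0.13 (SE) in the double strain (limma adjusted p = 1.04e-10) and 3.47 ± 0.13 in CA-CRTC-1 (adjusted p = 4.90e-10). In the double strain against CA-AAK-2 it was 2.02 ± 0.13 (adjusted p = 3.80e-08). In CA-AAK-2 against N2 its difference of 1.66 ± 0.13 could be tested only at the 1 CPM limit, where the limma adjusted p was 1.5e-06. Its neighbours ttr-24 and ttr-25, looked at after their values were seen, were called in none of the 6 tests.

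The 3 genes outside the family whose pattern was most like that of ttr-26 were ncx-8, a sodium/calcium exchanger, spin-2, a transporter related to Spinster, and tyr-1, a tyrosinase. Their Pearson correlations with ttr-26 over the 12 libraries were 0.99, 0.987 and 0.986, the highest of 13711 genes ranked. The 12 libraries fall into the 4 strains, so this is a likeness of strain means for the most part.

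A neighbouring pair on chromosome X rose together. ttr-59 (7329818 to 7330669) was at 35, 40.8 and 27.1 CPM in the double strain, 2.45, 3.8 and 3.71 CPM in CA-AAK-2, 18.1, 20.7 and 19.9 CPM in CA-CRTC-1, and 1.91, 2.23 and 3.73 CPM in N2. The double strain was highest, CA-CRTC-1 next, and CA-AAK-2 and N2 overlapped. The difference was 3.50 ± 0.20 in the double strain against N2, 2.72 ± 0.20 in CA-CRTC-1 against N2 and 3.19 ± 0.20 in the double strain against CA-AAK-2 (limma adjusted p = 8.23e-09, 3.32e-07 and 3.52e-08). The next gene, ttr-30 (7330949 to 7331903), was at 14.7, 15.4 and 12.6 CPM in the double strain, 2.17, 3.48 and 3.09 CPM in CA-AAK-2, 8.13, 8.27 and 7.53 CPM in CA-CRTC-1, and 3.31, 2.55 and 2.94 CPM in N2. It had the same order of strains, with a difference of 2.13 ± 0.15 in the double strain against CA-AAK-2 and 1.31 ± 0.15 in CA-CRTC-1 against N2 (limma adjusted p = 7.21e-08 and 1.30e-05). Without replicate 1 or replicate 2 of CA-CRTC-1, ttr-30 fell under the 5 CPM limit and its call in CA-CRTC-1 was lost at 1.29 and 1.28.

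A second neighbouring pair, on chromosome III, behaved alike. ttr-8 (7564500 to 7565347) was at 15.1, 16.1 and 9.33 CPM in the double strain, 1.8, 2.66 and 2.2 CPM in CA-AAK-2, 13.2, 11.4 and 11.3 CPM in CA-CRTC-1, and 2.43, 2.03 and 2.55 CPM in N2. ttr-32 (7566411 to 7567523), on the other strand, was at 26.7, 27.8 and 16.1 CPM in the double strain, 3.94, 6.58 and 4.8 CPM in CA-AAK-2, 19.1, 21 and 15.8 CPM in CA-CRTC-1, and 6.62, 5.67 and 6.49 CPM in N2. In both genes the strains with CA-CRTC-1 lay apart from those without it, and the double strain overlapped CA-CRTC-1. The difference between CA-CRTC-1 and N2 was 2.13 ± 0.18 for ttr-8 and 1.49 ± 0.20 for ttr-32 (limma adjusted p = 9.58e-07 and 6.33e-05). R13A5.7, whose exons overlap those of ttr-32, averaged 6.17 CPM in the double strain, 4.57 in CA-AAK-2, 4.38 in CA-CRTC-1 and 5.21 in N2, and so did not move with it.

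ttr-33, the member with a role in dopamine neurons, lies on chromosome V (7837093 to 7837909). It was at 35.1, 37 and 32 CPM in the double strain, 5.93, 8.72 and 7.47 CPM in CA-AAK-2, 22.7, 26 and 18.6 CPM in CA-CRTC-1, and 11, 9.47 and 10.8 CPM in N2. None of the 4 strains overlapped, with the double strain highest and CA-AAK-2 lowest. It rose by 1.69 ± 0.14 in the double strain and 1.06 ± 0.14 in CA-CRTC-1 against N2, and by 2.17 ± 0.14 in the double strain against CA-AAK-2 (limma adjusted p = 2.1e-07, 5.25e-05 and 3.33e-08). In CA-AAK-2 against N2 the difference of -0.48 ± 0.14 was not called (adjusted p = 0.0106). txt-5, which overlaps it on the same strand, averaged 3.56 CPM in the double strain, 2.56 in CA-AAK-2, 4.37 in CA-CRTC-1 and 3.26 in N2.

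Among the 5 most abundant members, ttr-15 (chromosome III, 10337847 to 10339440) rose in both strains with CA-CRTC-1. It was at 399, 502 and 352 CPM in the double strain, 118, 137 and 127 CPM in CA-AAK-2, 230, 255 and 206 CPM in CA-CRTC-1, and 146, 133 and 119 CPM in N2. The double strain lay above CA-CRTC-1, which lay above both other strains, and CA-AAK-2 overlapped N2. The difference from N2 was 1.64 ± 0.12 in the double strain and 0.79 ± 0.12 in CA-CRTC-1 (limma adjusted p = 6.39e-08 and 0.000187). Its share of the family's sum was 15 to 19% in the double strain, 6.77 to 6.95% in CA-AAK-2, 9.94 to 10.9% in CA-CRTC-1 and 5.49 to 6.07% in N2.

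Moderate rises were seen in ttr-18 and ttr-2. ttr-18 was at 90.5, 102 and 86 CPM in the double strain, 41.2, 45.3 and 49.8 CPM in CA-AAK-2, 89, 74.2 and 80.1 CPM in CA-CRTC-1, and 46.8, 43.5 and 42.8 CPM in N2. The strains with CA-CRTC-1 overlapped each other and lay above the other 2. It was higher by 1.05 ± 0.09 in the double strain and 0.86 ± 0.09 in CA-CRTC-1 against N2 (limma adjusted p = 3.25e-07 and 6.53e-06). ttr-2 was at 101, 135 and 88.8 CPM in the double strain, 53.6, 67.4 and 47.2 CPM in CA-AAK-2, 89.8, 89.3 and 79.7 CPM in CA-CRTC-1, and 59.5, 64.8 and 61.9 CPM in N2. It rose in the double strain against both CA-AAK-2 (0.94 ± 0.14, limma adjusted p = 0.000113) and N2 (0.78 ± 0.14, adjusted p = 0.000251). In CA-CRTC-1 against N2 its groups did not overlap, but the difference of 0.47 ± 0.14 was not called (adjusted p = 0.0225).

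Among the members called at the 5 CPM limit, ttr-31 and ttr-27 were highest in CA-CRTC-1. ttr-31 was at 16.3, 19.5 and 15 CPM in the double strain, 8.87, 11.1 and 8.75 CPM in CA-AAK-2, 27.1, 25.7 and 26.5 CPM in CA-CRTC-1, and 11.5, 12.8 and 11.7 CPM in N2. CA-CRTC-1 lay above all other strains and CA-AAK-2 below them. The difference was 1.11 ± 0.11 in CA-CRTC-1 against N2 and -0.63 ± 0.11 in the double strain against CA-CRTC-1 (limma adjusted p = 4.47e-06 and 0.000659), the second call being lost without replicate 3 of the double strain (-0.55). ttr-27 was at 5.81, 7.8 and 6.57 CPM in the double strain, 2.92, 3.67 and 3.21 CPM in CA-AAK-2, 9.02, 9.52 and 7.88 CPM in CA-CRTC-1, and 4.71, 3.55 and 4.32 CPM in N2. It rose by 0.99 ± 0.14 in CA-CRTC-1 (limma adjusted p = 0.000101), and its call in the double strain against N2 (0.62 ± 0.14, adjusted p = 0.0015) was lost without replicate 2 of the double strain or of N2 (0.52 in both cases).

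**Figure D3:**
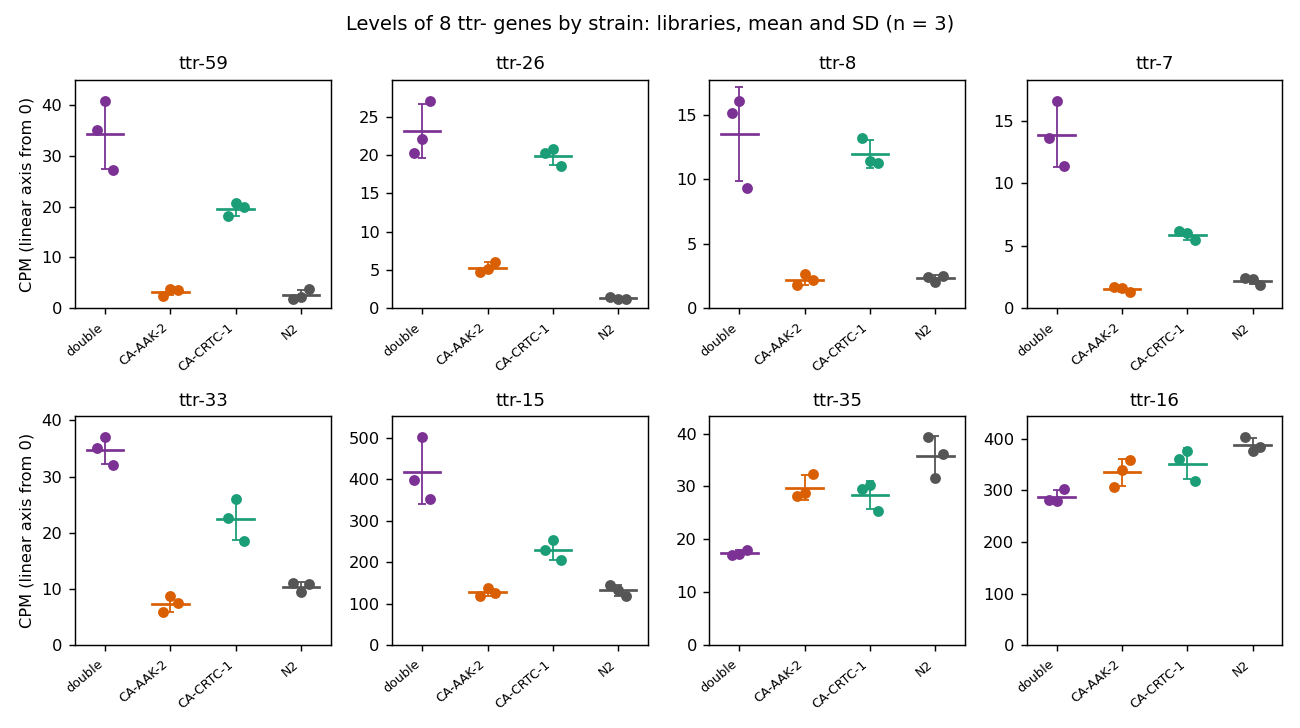
CPM of 8 ttr- genes by strain on linear axes that start at 0, with a point for each library, a bar at the mean and a whisker for the SD (n = 3). The top row and ttr-33 and ttr-15 are high in the double strain and in CA-CRTC-1, ttr-35 is lowest in the double strain, and ttr-16 was called in none of the tests.

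Several members that rose were nearly silent in N2. They were called only at the 1 CPM limit, and ttr-29 and ttr-21 are named after their values were seen. ttr-29, a neighbour of ttr-27 and ttr-28 on chromosome V, was at 3.67, 4.46 and 4.08 CPM in the double strain, 0.63, 0.499 and 0.585 CPM in CA-AAK-2, 3.35, 4.89 and 4.23 CPM in CA-CRTC-1, and 0.114, 0.161 and 0.178 CPM in N2. These N2 values rest on 4, 9 and 10 reads, against 142 to 269 reads in CA-CRTC-1. The strains with CA-CRTC-1 overlapped and lay far above N2, with a log2 difference of 2.82 ± 0.15 between CA-CRTC-1 and N2 (limma adjusted p = 1.70e-08 at the 1 CPM limit). The 0.5 CPM added before taking logs shrinks this value, and the plain ratio of means was 27.5. ttr-21 was at 2.82, 4.19 and 3.43 CPM in the double strain, 0.257, 0.499 and 0.641 CPM in CA-AAK-2, 4.64, 5.11 and 5.83 CPM in CA-CRTC-1, and 0.228, 0.232 and 0.285 CPM in N2. CA-CRTC-1 was highest here, and its difference from N2 was 2.92 ± 0.18 (limma adjusted p = 4.72e-08 at the 1 CPM limit).

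Of the 6 members at 1 to 2 CPM, ttr-28, ttr-42 and ttr-50 were called higher in CA-CRTC-1 against N2 at the 1 CPM limit. ttr-28 was at 1.01, 1.58 and 3.14 CPM in the double strain, 0.863, 0.713 and 1.28 CPM in CA-AAK-2, 1.81, 2.09 and 1.82 CPM in CA-CRTC-1, and 0.171, 0.214 and 0.303 CPM in N2, so that its double-strain libraries spread widely and overlapped CA-AAK-2. ttr-42 was at 1.69, 3.14 and 1 CPM in the double strain, 0.0933, 0.392 and 0.112 CPM in CA-AAK-2, 2.1, 2.73 and 1.46 CPM in CA-CRTC-1, and 0.371, 0.464 and 0.428 CPM in N2, with the 2 strains carrying CA-CRTC-1 apart from the rest. ttr-50 was at 1.96, 4.29 and 1.61 CPM in the double strain, 1.87, 2.8 and 2.26 CPM in CA-AAK-2, 1.96, 1.8 and 2.17 CPM in CA-CRTC-1, and 0.457, 0.464 and 0.535 CPM in N2. It was thus higher than N2 in all 3 other strains, with ratios of means of 5.4 in the double strain, 4.76 in CA-AAK-2 and 4.07 in CA-CRTC-1 (limma adjusted p = 7.22e-05, 0.000243 and 0.000851 at the 1 CPM limit). As ttr-50 was under 1 CPM in N2, it had to differ from N2 to pass that limit. The genes that overlap the exons of ttr-42 and ttr-50 varied less, with H01M10.1 at means of 1.65 CPM in the double strain, 1.26 in CA-AAK-2, 1.83 in CA-CRTC-1 and 1.06 in N2, and rbm-17 at 18.7 to 22.2 CPM in the 4 strains. ttr-11, ttr-13 and ttr-43 were called higher in the double strain against N2 only at this limit, by 0.92 ± 0.19, 0.59 ± 0.15 and 0.59 ± 0.17. C14C10.1, which overlaps the exons of ttr-43 by 12 bases on the other strand, averaged 63.7 CPM in the double strain, 63.5 in CA-AAK-2, 50.2 in CA-CRTC-1 and 50.3 in N2. ttr-55, outside the rule, was at 0.834, 0.829 and 1.28 CPM in the double strain, 0.863, 0.82 and 0.808 CPM in CA-AAK-2, 0.848, 0.618 and 0.897 CPM in CA-CRTC-1, and 1.06, 0.749 and 1.12 CPM in N2, with all strains overlapping.

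The members that rose tended to be those at a low level in the wild type. The comparison of the double strain with CA-AAK-2 uses no N2 library, so members can be grouped by their N2 level there. At the 1 CPM limit, 14 of the 22 members under 5 CPM in N2 were higher (63.6%), 4 of the 17 at 5 to 50 CPM (23.5%) and 2 of the 12 at 50 CPM or more (16.7%). The same shares over all genes were 20.1%, 6.77% and 4.28%, so genes in general showed the same slope, and a gene that is low in N2 can pass the filter by being high elsewhere. The members called higher had a median N2 level of 2.78 CPM, and the others of 23.8 CPM.

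**Figure D4:**
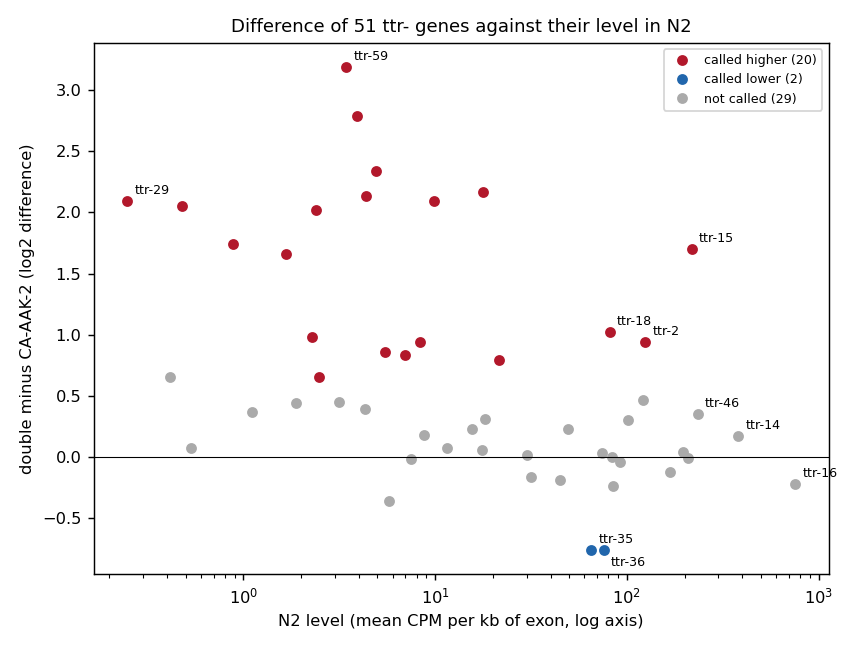
Log2 difference between the double strain and CA-AAK-2 against the N2 level in CPM per kb of exon (log axis) for the 51 ttr- genes, coloured by the call at the 1 CPM limit. The 20 members called higher lie mostly at low N2 levels, with ttr-15, ttr-18 and ttr-2 as the ones that are abundant in N2.

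In CA-AAK-2 alone, compared with N2, no member rose past the thresholds at the 5 CPM limit. Of 29 members tested, limma called 0 higher, against 8.20% of the 10368 genes tested, and 2 lower (6.90%), against 4.4%. edgeR on recovered reads also called 0 higher, and 12 of the 29 had an unadjusted p under 0.05 in either direction. The share of all genes with such a p is not given here. At an adjusted p of 0.05 without a minimum fold, limma called 1 of the 29 higher and 9 lower. Of the 10368 genes, 3493 were then higher and 1534 lower. Of all 51 members, 43 lay within 1.5-fold of N2, against 85.7% of genes. The median of the 51 was -0.14, against 0.09 over all genes with a mean of 1 CPM or more. In 13 members the 3 CA-AAK-2 libraries all lay below the 3 of N2 (25.5%), against 17.8% of genes. In 6 they all lay above (11.8%), against 35.3% of genes. At the 1 CPM limit 3 of 47 were higher (6.38%, against 8.70% of genes). These 3 were ttr-26, ttr-23 and ttr-50. Of them, ttr-23 and ttr-50 were under 1 CPM in N2 and had to differ to pass that limit. Among the 43 members at 1 CPM or more in both strains, 1 was higher (2.33%), against 7.89% of such genes. With median-ratio rescaling, 5 members were called lower.

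The 2 members called lower in CA-AAK-2 were ttr-44 and ttr-37. ttr-44 was at 85, 84.8 and 85.9 CPM in the double strain, 66.9, 100 and 93.4 CPM in CA-AAK-2, 116, 95.1 and 84.8 CPM in CA-CRTC-1, and 139, 135 and 143 CPM in N2. All 3 other strains lay below N2. The difference was -0.70 ± 0.13 in both the double strain and CA-AAK-2 (limma adjusted p = 0.000334 and 0.000629), and -0.50 ± 0.13 in CA-CRTC-1, which was not called (adjusted p = 0.0106). Its exons overlap those of R11G10.3, which averaged 0.934 to 1.29 CPM in the 4 strains. ttr-37 was at 7.02, 8.17 and 8.03 CPM in CA-AAK-2, against 14.7, 10.8 and 10.6 CPM in N2, a difference of -0.59 ± 0.16 (limma adjusted p = 0.00697). That call was kept in 1 of the 6 fits that left out a library. The number of members called in this comparison was 0 without CA-AAK-2 replicate 1, 4 without CA-AAK-2 replicate 2, and 1 without CA-AAK-2 replicate 3, N2 replicate 1 or N2 replicate 2.

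The double strain was also compared with CA-CRTC-1, strains with and without the kinase transgene that both carry the coactivator transgene. Of 37 members tested, 6 were higher in the double strain (16.2%), against 4.68% of the 10727 genes tested, and 3 were lower (8.11%), against 4.17%. ttr-7, ttr-15, ttr-23, ttr-30, ttr-33 and ttr-59 were higher, and ttr-31, ttr-35 and ttr-36 lower. Among the 35 members at 5 CPM or more in both strains, 5 were higher (14.3%), against 4.04% of such genes. The number higher was 3 without double-strain replicate 1 or without CA-CRTC-1 replicate 1 or 3. The call of ttr-59 (0.78 ± 0.20, limma adjusted p = 0.00858) and that of ttr-23 (0.86 ± 0.20, adjusted p = 0.00382) were each kept in 1 of 6 fits that left out a library, and that of ttr-33 (0.63 ± 0.14, adjusted p = 0.00286) in 2 of 6. ttr-7, ttr-15 and ttr-30 were called in all 6 of them.

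ttr-7 (chromosome III, 606004 to 606998) was at 13.6, 16.6 and 11.4 CPM in the double strain, 1.75, 1.62 and 1.31 CPM in CA-AAK-2, 6.2, 6.05 and 5.45 CPM in CA-CRTC-1, and 2.43, 2.34 and 1.87 CPM in N2. The 4 strains did not overlap, with the double strain highest and CA-AAK-2 lowest. Its difference was 2.79 ± 0.15 in the double strain against CA-AAK-2 and 1.15 ± 0.15 in the double strain against CA-CRTC-1 (limma adjusted p = 6.70e-09 and 5.46e-05). best-17, which overlaps its exons by 74 bases on the other strand, averaged 5.83 CPM in the double strain, 1.63 in CA-AAK-2, 4.87 in CA-CRTC-1 and 1.12 in N2. The overlapping gene was therefore also higher in both strains with CA-CRTC-1, and reads of the shared stretch cannot be told apart. ttr-23 was at 7.62, 7.26 and 9.48 CPM in the double strain, 1.96, 2.53 and 2.15 CPM in CA-AAK-2, 4.17, 4.4 and 4.08 CPM in CA-CRTC-1, and 0.457, 0.892 and 1.37 CPM in N2, with no overlap between any of the strains. It rose by 1.66 ± 0.20 in the double strain against CA-AAK-2 (limma adjusted p = 1.48e-05), and without any one of the 3 double-strain libraries (1.70, 1.74 and 1.55) it fell under the 5 CPM limit and lost the call.

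The neighbours ttr-35 (chromosome X, 6512285 to 6512918) and ttr-36 (6510927 to 6512195) went the other way. ttr-35 was at 17, 17.3 and 18 CPM in the double strain, 28.1, 28.8 and 32.4 CPM in CA-AAK-2, 29.6, 30.3 and 25.4 CPM in CA-CRTC-1, and 39.3, 31.6 and 36.1 CPM in N2. ttr-36 was at 16.9, 18.1 and 18.8 CPM in the double strain, 28.3, 32.4 and 31.5 CPM in CA-AAK-2, 30.8, 34.6 and 26.4 CPM in CA-CRTC-1, and 39.4, 33.9 and 33.4 CPM in N2. For both, the double strain lay below every library of the other strains. The difference between the double strain and N2 was -1.01 ± 0.10 for ttr-35 and -0.96 ± 0.10 for ttr-36 (limma adjusted p = 8.89e-07 and 2.46e-06). Both were also lower than in CA-AAK-2 (-0.76 ± 0.10 each, limma adjusted p = 2.91e-05 and 5.30e-05) and than in CA-CRTC-1 (-0.69 ± 0.10 and -0.75 ± 0.10, adjusted p = 0.000107 and 9.40e-05). These calls were made in every fit that left out a library.

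Both transgenes together were compared with N2 last. Of 35 members tested, 11 were higher in the double strain (31.4%), against 15.6% of the 10594 genes tested, and 3 were lower (8.57%), against 6.87%. The 11 were ttr-2, ttr-7, ttr-8, ttr-15, ttr-18, ttr-26, ttr-27, ttr-30, ttr-32, ttr-33 and ttr-59, and the 3 lower were ttr-35, ttr-36 and ttr-44. Of the 29 members at 5 CPM or more in both strains, 5 were higher (17.2%), against 13.2% of such genes, and 6 of the 11 were under 5 CPM in N2. With the lower limit, 14 of the 43 members at 1 CPM or more in both strains were higher (32.6%), against 15.7% of such genes. In 26 members the 3 double-strain libraries all lay above the 3 of N2 (51%), against 43.7% of genes. The median of the 35 tested members was -0.08, against 0.14 over all genes tested.

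**Figure D5:**
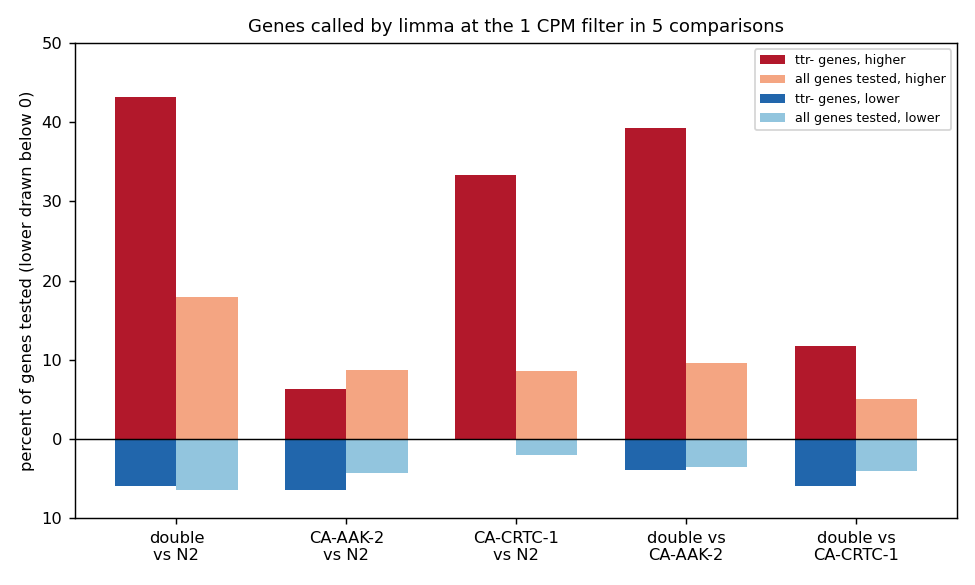
Percent of ttr- genes (dark bars, left) and of all genes tested (pale bars, right) called higher (above 0) or lower (below 0) by limma at the 1 CPM limit, in each of the 5 comparisons of strains. The share of ttr- genes called higher was 43.1% in the double strain against N2 (17.9% of all genes), 6.38% in CA-AAK-2 against N2 (8.70%), 33.3% in CA-CRTC-1 against N2 (8.61%), 39.2% in the double strain against CA-AAK-2 (9.55%) and 11.8% in the double strain against CA-CRTC-1 (5.1%).

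Of the most abundant members, ttr-14 was at 357, 454 and 436 CPM in the double strain, 340, 403 and 362 CPM in CA-AAK-2, 375, 406 and 312 CPM in CA-CRTC-1, and 600, 527 and 490 CPM in N2. All strains with a transgene lay below N2, with differences of -0.38 ± 0.11 in the double strain, -0.55 ± 0.11 in CA-AAK-2 and -0.57 ± 0.11 in CA-CRTC-1, each less than 1.5-fold and not called. After median-ratio rescaling it was called lower in CA-AAK-2 (-0.67) and in CA-CRTC-1 (-0.64), and it was called in 2 and 3 of the 6 fits of these comparisons that left out a library. vap-2, which overlaps its exons on the other strand, averaged 14.8 CPM in the double strain, 1.3 in CA-AAK-2, 11.9 in CA-CRTC-1 and 0.951 in N2. ttr-16 was at 281, 279 and 303 CPM in the double strain, 307, 340 and 358 CPM in CA-AAK-2, 360, 377 and 319 CPM in CA-CRTC-1, and 403, 376 and 385 CPM in N2. The double strain was lowest, with a difference of -0.43 ± 0.08 from N2 that was below 1.5-fold. lin-3, the epidermal growth factor gene, overlaps its exons by 209 bases and averaged 29.4 CPM in the double strain, 25.1 in CA-AAK-2, 19 in CA-CRTC-1 and 13.7 in N2. ttr-46 was at 146, 147 and 134 CPM in the double strain, 115, 131 and 91.2 CPM in CA-AAK-2, 156, 146 and 131 CPM in CA-CRTC-1, and 166, 156 and 145 CPM in N2. It was called in none of the main tests. CA-AAK-2 lay below N2 without overlap, with a difference of -0.48 ± 0.11 (limma adjusted p = 0.0026) that was below 1.5-fold. After median-ratio rescaling it was called lower there (-0.60), as it was in 1 of the 6 fits that left out a library.

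The interaction asks whether the CA-CRTC-1 difference is the same with CA-AAK-2 as without it. Of 35 members tested, limma called 4 higher (11.4%), against 3.91% of the 10576 genes tested, and 1 lower (2.86%), against 4.82%. A positive value means a larger CA-CRTC-1 difference where CA-AAK-2 is present. It was 1.55 ± 0.21 for ttr-7, 1.11 ± 0.20 for ttr-33, 0.91 ± 0.17 for ttr-15 and 0.74 ± 0.16 for ttr-14 (adjusted p = 0.000148, 0.0011, 0.00165 and 0.005). For ttr-26 it was -1.46 ± 0.18 (limma adjusted p = 9.38e-05). ttr-7 passed the 5 CPM limit (mean 5.88 CPM) through the double strain, at 13.9 CPM against 1.56 to 5.9 CPM in the other strains. That same high level makes its interaction positive. Without double-strain replicate 2 (1.41) ttr-7 fell under the limit and was not called. At the 1 CPM limit, which it met in every strain, it was called as well (limma adjusted p = 0.000175). ttr-14 was called in 6 of the 12 fits that left out a library.

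Genes linked to described members by function form short lists. The first list is of genes linked to the removal of dying cells, not all of which act in the pathway of TTR-52. Of the 13 tested, ced-1 (1.03 ± 0.09), ced-6 (0.74 ± 0.09) and chat-1 (0.68 ± 0.09) were higher in the double strain against N2 (limma adjusted p = 2.85e-07, 1.25e-05 and 1.93e-05), where 15.6% of all genes tested were higher. ced-1, the receptor, was also higher in the double strain against CA-AAK-2 (0.60 ± 0.09, adjusted p = 9.77e-05), and no other call was made in the list in the 5 comparisons. Of 8 genes of dopamine neurons 3 could be tested. cat-4, an enzyme of cofactor synthesis, was higher in the double strain against N2 (0.89 ± 0.13) and CA-AAK-2 (0.68 ± 0.13), and bas-1, the amino acid decarboxylase, was lower (-0.83 ± 0.11 and -0.81 ± 0.11), with limma adjusted p-values of 1.32e-05 to 0.000936. bas-1 was also lower in the double strain against CA-CRTC-1 (-0.63 ± 0.11, limma adjusted p = 0.000486). The summed level of the 8 genes was 75.7 to 93.5 CPM in the double strain, 75.3 to 80.7 in CA-AAK-2, 80.4 to 85.5 in CA-CRTC-1 and 75.9 to 78.1 in N2. The single 5-hydroxyisourate hydrolase gene in the tables, R09H10.3, was not called in any test and was at 34.6 to 35 CPM in the double strain, 34.9 to 40.5 in CA-AAK-2, 36.8 to 42 in CA-CRTC-1 and 36 to 38.6 in N2.

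Genes that cycle with the moult differed between the strains. Of 15 such genes, 11 were higher and 1 lower in the double strain against N2, 13 higher and 1 lower in CA-AAK-2, and 12 higher and 1 lower in CA-CRTC-1. Over all genes tested, 15.6%, 8.2% and 6.62% were higher in these comparisons, in that order, and 6.87%, 4.4% and 2.17% lower. Their summed level was 1567 to 3440 CPM in the double strain, 2225 to 2678 CPM in CA-AAK-2, 2599 to 2955 CPM in CA-CRTC-1 and 1000 to 1108 CPM in N2. In CA-AAK-2 against N2, where 13 moult genes were higher, 0 of the 29 ttr- members tested were called higher at the 5 CPM limit and 3 of 47 at the 1 CPM limit. Of those 3, 2 were under 1 CPM in N2 and had to differ to pass that limit. In the double strain against CA-AAK-2, 2 of the 15 moult genes were called, both lower. The summed moult level of the double-strain libraries ran beyond both ends of that of CA-AAK-2, so this comparison was not matched for the list either. In it 12 ttr- members were higher at the 5 CPM limit. The comparisons with N2 are made between animals that differ in the moult list. In the interaction, 11 of the 15 moult genes were called lower and 0 higher, against 4.82% and 3.91% of the genes tested. Their median was -1.84, against -0.08 over all genes tested. Of the 35 ttr- members tested there, 4 were higher and 1 lower. The part of the moult list in the ttr- differences was not tested in any comparison or in the interaction.

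Markers of other tissues are given because any of them could express ttr- genes. Over all genes tested, 7.66% were higher and 3.63% lower in the double strain against CA-AAK-2. The shares were 6.62% and 2.17% in CA-CRTC-1 against N2, and 8.2% and 4.4% in CA-AAK-2 against N2. Of 7 pharynx markers tested, 6 were higher in the double strain against CA-AAK-2, and 2 of 7 in CA-CRTC-1 against N2. In CA-AAK-2 4 of 6 were lower than in N2. Their summed level was 597 to 684 CPM in the double strain, 347 to 420 in CA-AAK-2, 771 to 808 in CA-CRTC-1 and 600 to 678 in N2. Of 10 intestine markers, 3 were higher and 1 lower in the double strain against CA-AAK-2, and 1 was higher in CA-CRTC-1 against N2. Against N2, 3 were higher and 2 lower in the double strain (15.6% and 6.87% of all genes tested). In CA-AAK-2 1 was higher and 2 lower than in N2. The sum of the intestine markers was 6372 to 7277 CPM in the double strain, 4322 to 4922 in CA-AAK-2, 5632 to 6503 in CA-CRTC-1 and 4744 to 5102 in N2. Of this sum, asp-1 alone made up 2291 CPM in N2, and it was higher in the double strain by 0.82 ± 0.10. The median of the 10 markers there was -0.32. Of 7 epidermis and seam markers tested, 5 were higher in CA-CRTC-1 against N2 and 2 in the double strain against CA-AAK-2. Against N2, 6 of 7 were also higher in the double strain (15.6% of all genes tested) and 3 of 6 in CA-AAK-2. The sum of the epidermis and seam markers was 186 to 246 CPM in the double strain, 152 to 180 in CA-AAK-2, 218 to 237 in CA-CRTC-1 and 88.3 to 92.5 in N2. Calls in the double strain against CA-AAK-2 and in CA-CRTC-1 against N2 were 1 and 0 of 11 neuron markers, 0 and 1 of 6 glia markers and 1 and 1 of 5 excretory markers. Body-wall muscle (9), coelomocyte (2), germline (12) and sperm (7) markers had no call in either. Every list gene in the tables was at a mean of 1 CPM or more, and the part of any tissue in the ttr- differences was not tested.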

How the data were processed

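The deposited values are CPM. Per the series text, the authors scaled counts by edgeR to correct for depth and composition over the whole set of libraries. Per that text, reads were trimmed with cutadapt, aligned with TopHat2 2.0.8 and counted per gene with HTSeq; the submitters' processing notes also list CASAVA 1.8.2. Both ce6 and WS238 are named in the series text, which leaves the build uncertain; coordinates here are those of WBcel235 (Ensembl annotation) and served only to place genes. The text says that genes under 1 CPM were dropped, yet 743 deposited genes have a mean under 1 CPM. The 14508 table rows gave 14505 genes after 3 repeated names were merged, 13820 with a symbol; 72 rows have retired identifiers. Dividing by each column's smallest step gave whole reads for 100% of values within 0.02 reads. Columns sum to 862226 to 902133 CPM.

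The test was limma 3.58.1 (R 4.3.3) with a trended prior, fitted to log2(CPM + 0.5) for all 12 libraries at once and without replicate number as a term. Filters were a mean of 1 CPM over all libraries and 5 CPM over those compared. P-values were adjusted over all genes tested by the Benjamini-Hochberg method. The procedure was tested on simulated data. The ttr- members, the gene lists and the tests were chosen with earlier results of these data known. Named members are those called in at least 1 test, the 5 with the highest mean CPM, those at 1 to 2 CPM, the symbol under 1 CPM and ttr-33; exceptions are stated. 2 list symbols that name more than 1 gene were left out. No list received a test of its own. Alternatives changed the pseudocount (0.1 or 2), the comparison filter (1 CPM or none), the scaling (median ratio), the libraries in the fit (those compared), the prior (constant), the model (with a replicate block), the thresholds (adjusted p of 0.05, no minimum fold) or the tool (edgeR 4.0.16, run on recovered reads), or left out each library. edgeR with the 1 CPM filter was added after seeing the data.

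Replicate numbers come from the labels, which do not say what they share. Between the double strain and CA-AAK-2, same-numbered libraries deviated together (r = 0.252, 0.313 and 0.275 over genes), so the numbers were taken to pair those strains; other pairs of strains did not meet the rule that every pair exceeds 0.1. Sequences of the members were not used here.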

Additional observations from a re-analysis of the deposited data

Results flagged for a closer look

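5 members stood out because they differed by unequal amounts between strains with and without CA-CRTC-1 depending on whether CA-AAK-2 was present, by the limma interaction test with Benjamini-Hochberg adjustment. The CA-CRTC-1 difference of ttr-26 was smaller with CA-AAK-2, by an interaction of -1.46 (2.02 with it and 3.47 without it). It was larger with CA-AAK-2 for ttr-7 (interaction 1.55, from 2.79 with it and 1.24 without it), ttr-33 (1.11, from 2.17 and 1.06), ttr-15 (0.91, from 1.70 and 0.79) and ttr-14 (0.74, from 0.17 and -0.57). In the case of ttr-14 the CA-CRTC-1 difference was thus negative without CA-AAK-2 and near 0 with it. At the 1 CPM limit ttr-38 was called as well (1.39, adjusted p = 0.00146). ttr-7 passed the 5 CPM limit through its level in the double strain, and it was also called at the 1 CPM limit.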

How the results depend on the processing

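Members under about 5 CPM were tested only when the limit was lowered. Against N2, members called in the double strain were 14, with 25 at the 1 CPM filter and without a filter and 26 by edgeR at 1 CPM. In CA-CRTC-1 they were 10, with 17 under each of those 3 settings, and in the double strain against CA-AAK-2 14, with 22 under each. In CA-AAK-2 they were 2, with 6 at 1 CPM (limma and edgeR), 8 without a filter, 5 with median-ratio rescaling, 1 with a pseudocount of 2 or a constant prior, and 10 at an adjusted p of 0.05. Those 10 were of 29 tested, against 5027 of 10368 genes. The last setting gave 15 of 37 tested in the double strain against CA-CRTC-1 (9 in the main test), against 4200 of 10727 genes. For the interaction it gave 10 of 35 (5 in the main test), against 2191 of 10576 genes. Against N2, the median over all genes tested was 0.14 in the double strain and 0.11 in CA-AAK-2, and 0 and -0.01 after rescaling.

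With an adjusted p of 0.05 and no minimum fold, the genes called were 6357, 5027, 2799, 3748, 4200 and 2191 in the double strain, CA-AAK-2 and CA-CRTC-1 against N2, the double strain against CA-AAK-2 and against CA-CRTC-1, and the interaction. They were 2383, 1306, 924, 1198, 949 and 923 in the main test. edgeR on the recovered reads called 2478, 1369, 953, 1229, 992 and 893. Without a filter they were 3632 in the double strain, 1644 in CA-CRTC-1 and 1986 in the double strain against CA-AAK-2, with 1436 in CA-CRTC-1 at 1 CPM and 1486 and 1836 for the last 2 by edgeR at 1 CPM.

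The median log2 difference of the members was 0.29 in the double strain against N2, with 0.16 after rescaling, 0.33 by edgeR and -0.08 over the 35 members at 5 CPM or more. In CA-CRTC-1 it was 0.19, with 0.25 and 0.10 at pseudocounts of 0.1 and 2, 0.29 by edgeR and -0.01 over those members. In the double strain against CA-AAK-2 it was 0.37, with 0.29 at a pseudocount of 2 and 0.23 over those members, and against CA-CRTC-1 0.10, with 0.04 after rescaling and -0.02 over those members. Leaving out 1 library gave medians of 0.22 to 0.38, 0.09 to 0.24, 0.31 to 0.46 and 0.00 to 0.15 in these 4 comparisons, with 13 to 15, 10 to 11, 13 to 16 and 6 to 7 members called, 0 to 4 in CA-AAK-2 and 4 to 7 for the interaction.

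With replicate number as a block, 14, 2, 10, 14, 9 and 5 members were called in the 6 tests, as in the main test, and no member's call changed. Of 54 member and test pairs called, 43 kept the call under every alternative and 11 lost it under at least 1, of which 4 fell under the filter when a library was left out. None reversed.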
